A study of Mus musculus with 5 samples.

Results

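The RNAs described here are 9 structural non-coding RNAs of mouse cells: the 7SL RNAs Rn7s1 and Rn7s2, the 7SK RNA Rn7sk, the RNase P RNA Rpph1, the RNase MRP RNA Rmrp, the telomerase RNA Terc, the Y RNAs Rny1 and Rny3 and the vault RNA Vaultrc5. They were found by name, as the transcripts that carry one of these 9 gene names in the deposited files, and make up 9 of 38170 genes in the table. GL261 cells, a mouse glioma line, had been given sodium propionate in 2 libraries (replicates 2 and 3) or sodium chloride, the control salt, in 3 libraries (replicates 1, 2 and 3). Both salts were used for 24 h at a dose labelled 1 uM, a unit that could not be checked, and propionate replicate 1 was not analysed here. All libraries are of 1 cell line. No label states that they derive from independent cultures, so each p-value reflects the spread among these libraries alone, and that spread may be technical.

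Structural non-coding RNAs work as parts of ribonucleoprotein machines and are not translated. 7SL RNA is the backbone of the signal recognition particle, which brings ribosomes that make secreted proteins to the endoplasmic reticulum, and 7SK RNA holds the elongation kinase P-TEFb in an inactive store. RNase P trims the leaders of precursor tRNAs, RNase MRP cuts precursor ribosomal RNA, and telomerase copies its RNA template onto chromosome ends. Y RNAs bind the Ro60 protein and vault RNAs sit in the vault particle. Except for Terc, which RNA polymerase II makes, these are products of RNA polymerase III.

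Levels are given as TPM, a level per transcript length scaled so that all transcripts sum to 1000000 in each library. Levels of different genes are set beside each other on this scale. It does not correct for how well RNAs of different lengths were recovered, or for signal split among lines that share sequence. The files hold no read counts. Aligned sequence over the listed transcripts came to 6.59 and 6.75 Gb in the propionate libraries, against 7.03, 6.75 and 6.53 Gb in the chloride libraries, and 1 TPM corresponded to a mean coverage of 4.73 to 4.99 per base. The labelled cells had the markers Vim (5472 to 7073 TPM over the 5 libraries), Sox2 (52.1 to 85.3 TPM), Cd44 (48.0 to 61.7 TPM) and Nes (44.2 to 51.5 TPM), while the glial gene Olig2 stayed at 0.357 to 0.904 TPM. Of the markers of other cell types, Itgam, Rbfox3 and Snap25 were listed at 0 in all 5 libraries and Ptprc reached 0.0457 TPM. Differences are log2(TPM + 1) in propionate minus chloride libraries with their standard error (SE), 95% confidence interval and Benjamini-Hochberg adjusted p from limma over 13875 genes with a mean of at least 1 TPM, called below 0.05. All 9 RNAs passed this minimum. In bulk RNA, fewer cells of a type and less RNA per cell cannot be told apart.

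Both 7SL loci have the same sequence over all 300 bases of the GENCODE M21 transcripts, so a read from one matches the other. Rn7s2 lies at chr12:69361182-69361481 on the minus strand (GRCm38), and 212 of its bases are listed again in the files as the gene Gm47305.

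The telomerase RNA is shown because it had the smallest p of the 9. Its first 120 bases are printed, of 423 (GRCm38, chr3:96414740-96414859, minus strand). Capitals mark CTAACCC, letters of the template that is copied into telomere repeats, at position 29 from the transcript's start.
Terc: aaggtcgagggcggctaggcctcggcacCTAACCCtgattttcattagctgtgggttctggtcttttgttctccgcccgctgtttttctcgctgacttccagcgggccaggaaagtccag
The letters CTAACCC stand on either strand of 2 of the 9 RNAs, Terc and, at position 93, Vaultrc5. Among the 5679 M21 transcripts of 400 to 450 bases, 1.99% held them on either strand and 65 transcripts on their own strand. The other RNAs are shorter, so this background fits the length of Terc alone.

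The Y RNAs are shown as the shortest and least GC-rich members, and capitals mark the 4 terminal T of each. Rny1 lies at chr6:47788069-47788180 on the minus strand and Rny3 at chr6:47781624-47781725 on the plus strand (GRCm38).
Rny1: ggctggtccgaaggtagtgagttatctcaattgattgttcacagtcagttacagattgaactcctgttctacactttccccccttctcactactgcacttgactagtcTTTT
Rny3: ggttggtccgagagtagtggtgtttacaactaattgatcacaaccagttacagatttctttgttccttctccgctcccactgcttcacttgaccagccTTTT
They had the same base in 81 of 112 aligned columns (72.3%). A run TTTT ends 12.3% of the 3673 M21 transcripts of 100 to 150 bases. GC content was 43.8% in Rny1 and 45.1% in Rny3, against 58.0% to 67.1% in Terc and the 5 RNAs with the highest TPM.

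None of the 9 RNAs was called higher or lower after propionate. Of all 13875 genes tested, 1.82% were called, 1.31% higher and 0.505% lower. Terc alone of the 9 had an unadjusted p under 0.05 by limma, as did 16.8% of all tested genes. Voom, run on estimated reads, also called 0 of the 9, while it called 708 higher and 359 lower of the 13875 genes. The difference was negative for 7 RNAs and positive for 2, with a median of -0.03 on the log2 scale. Over all tested genes the median was -0.03 and 55.5% of differences were negative. Both propionate libraries lay below all 3 chloride libraries for 2 of the 9, Terc and Vaultrc5, as they did for 19.7% of all tested genes. They lay above for 0 of the 9, against 14.8% of all tested genes. The groups thus did not overlap for 2 of the 9, against 34.6% of all tested genes.

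**Figure D1:**
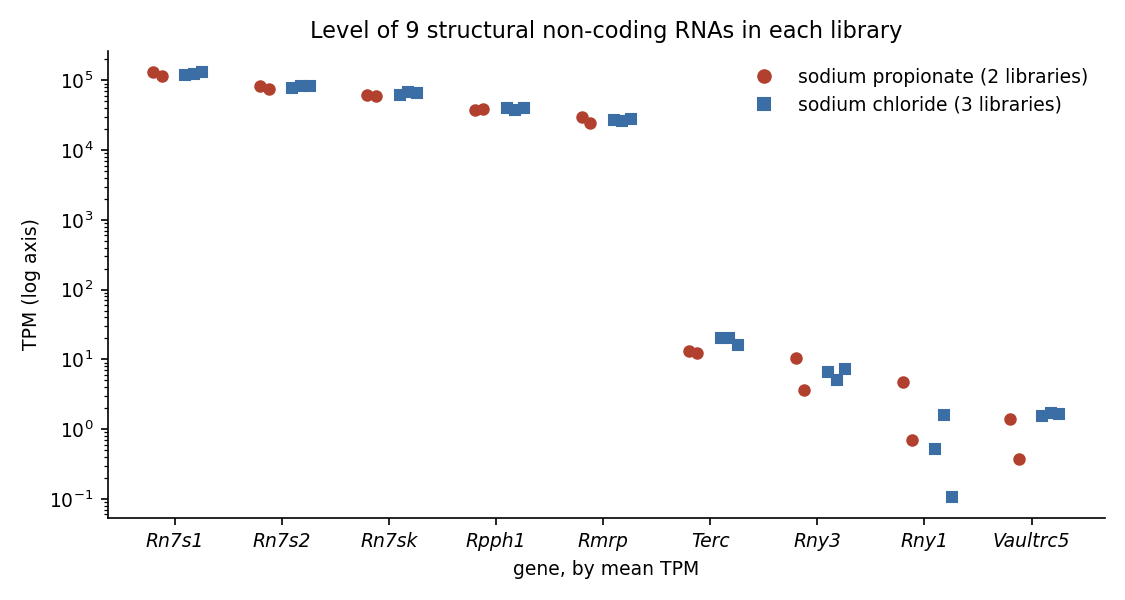
Level of each RNA in TPM on a log axis, with 1 point per library, for 2 propionate libraries (circles, left) and 3 chloride libraries (squares, right). The 5 abundant genes lie at 24677 TPM or more the other 4 at 20.3 TPM or less, and only Terc and Vaultrc5 have groups that do not overlap.

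**Figure D2:**
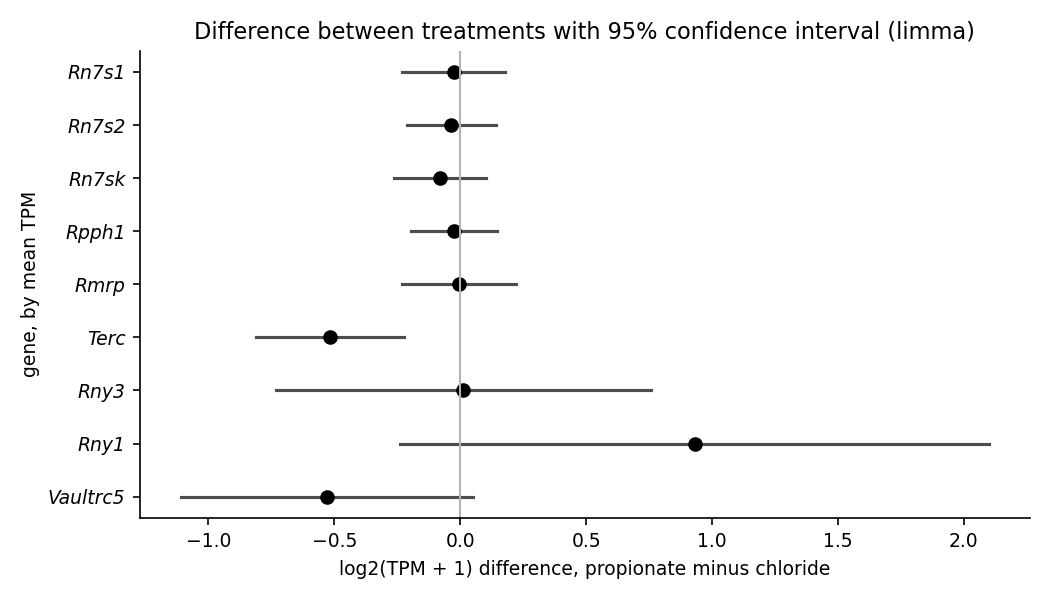
Difference in log2(TPM + 1), propionate minus chloride, for each RNA, with points for the limma estimate and bars for its 95% confidence interval. The interval of Terc, -0.81 to -0.23, is the one that leaves out 0, although its adjusted p was 0.0905.

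By TPM in these libraries, the label abundant fitted 5 of the 9. Rny1, Rny3 and Vaultrc5 are 112, 102 and 143 bases long, and how well RNAs this short were recovered was not tested. Rn7s1, Rn7s2, Rn7sk, Rpph1 and Rmrp ranked 1, 2, 3, 5 and 6 among the 38170 genes by mean TPM, while Terc ranked 5516, Rny3 9045, Rny1 12896 and Vaultrc5 13190. Rank 4 was Gm47305, the line nested in Rn7s2. By the named lines, the order Rn7s1, Rn7s2, Rn7sk, Rpph1, Rmrp, Terc, Rny3 held in every library. The ranges of neighbours in that order did not overlap. With nested lines counted in their host, the ratio of Rn7s1 to Rn7s2 was 0.992 to 1.06, so the order of these loci depends on the counting. At the low end, Rny3, Rny1 and Vaultrc5 had ranges that overlapped from one to the next.

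Together the 9 RNAs held 34.4% and 31.7% of all TPM in the propionate libraries, against 32.7%, 34.0% and 35.0% in the chloride libraries. The means were 33.1% ± 1.92 (SD, n = 2) and 33.9% ± 1.16 (SD, n = 3), and the groups overlapped. The difference in means was -0.83 percentage points. It was 0.53 points without propionate replicate 3 and -2.18 points without propionate replicate 2, so its direction rested on single libraries. Terc, Rny1, Rny3 and Vaultrc5 together held 0.00296% and 0.00172% in the propionate libraries and 0.00289%, 0.00285% and 0.00250% in the chloride libraries. By aligned bases, where short transcripts count less, the 9 RNAs held 7.98% and 6.82% in the propionate libraries, against 7.01%, 7.56% and 8.04% in the chloride libraries. Since TPM sums to a fixed total, the share of these RNAs sets that of all other genes.

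**Figure D3:**
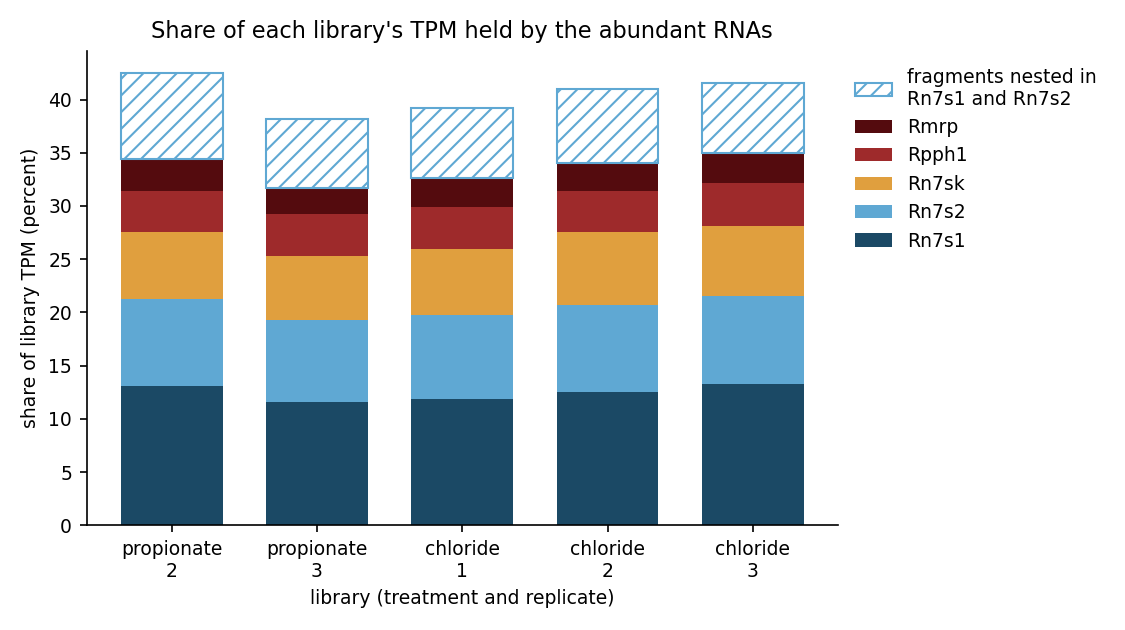
Share of each library's TPM, in percent, held by the 5 most abundant RNAs, stacked, with the annotated fragments nested in the 7SL loci hatched on top. Propionate replicates 2 and 3 reach 42.5% and 38.1% with the fragments, and the chloride libraries lie between them at 39.2% to 41.6%.

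Among the 7SL genes, Rn7s1 (chr12:69159295-69159596 in the files' build, mm10, plus strand) had the highest level of any gene by the named lines. It stood at 130764 and 115900 TPM in the propionate libraries, against 118812, 125059 and 132436 TPM in the chloride libraries. The propionate libraries lay on both sides of the lowest chloride library, and the difference was -0.03 ± 0.09 (SE; interval -0.23 to 0.18; adjusted p = 0.921). Rn7s2 stood at 82219 and 76745 TPM in the propionate libraries, against 78999, 82282 and 83092 TPM in the chloride libraries. Its groups overlapped too, with a difference of -0.04 ± 0.08 (interval -0.21 to 0.14; adjusted p = 0.866).

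The named lines do not hold all of the 7SL signal. The files list shorter genes inside both loci, and the M21 annotation types them as miRNA genes. Gm47305 covers 212 bases of Rn7s2 in the files, while its M21 transcript has 70 bases. It had 66497 and 57003 TPM in the propionate libraries, against 58249, 62509 and 59107 TPM in the chloride libraries. Its difference was 0.04 (adjusted p = 0.878). Gm47299, which covers the remaining end of Rn7s2, had 9910 and 3078 TPM in the propionate libraries, against 2332, 2713 and 2361 TPM in the chloride libraries. Both propionate libraries lay above all chloride libraries, replicate 2 by far the most, and the difference of 1.17 ± 0.39 (SE) did not pass (adjusted p = 0.182). Gm47295, inside Rn7s1, had 4144 and 4309 TPM in the propionate libraries and 4675, 4620 and 4822 TPM in the chloride libraries, with a difference of -0.15 (adjusted p = 0.337). A partial 7SL copy on chromosome 6, Gm47304, has an M21 transcript of 70 bases that matches 7SL at 100% identity. It had 5930 and 3167 TPM in the propionate libraries and 3775, 3884 and 4139 TPM in the chloride libraries.

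Counting the nested lines in their host, weighted by their length in the files, brought the identical loci to nearly equal levels, with Rn7s2 the higher in 4 of 5 libraries. The ratio of Rn7s1 to Rn7s2 by the named lines was 1.59 and 1.51 in the propionate libraries, against 1.50, 1.52 and 1.59 in the chloride libraries. With the nested lines it was 0.997 and 0.992 in the propionate libraries, against 0.993, 0.992 and 1.06 in the chloride libraries. This way of counting was chosen after seeing the data. Both loci then summed to 264064 and 234989 TPM in the propionate libraries, against 240904, 253546 and 259274 TPM in the chloride libraries, so the groups still overlapped. Because the sequences are identical, the share of each locus is an estimate of the authors' software and the level of a single 7SL gene is uncertain.

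**Figure D4:**
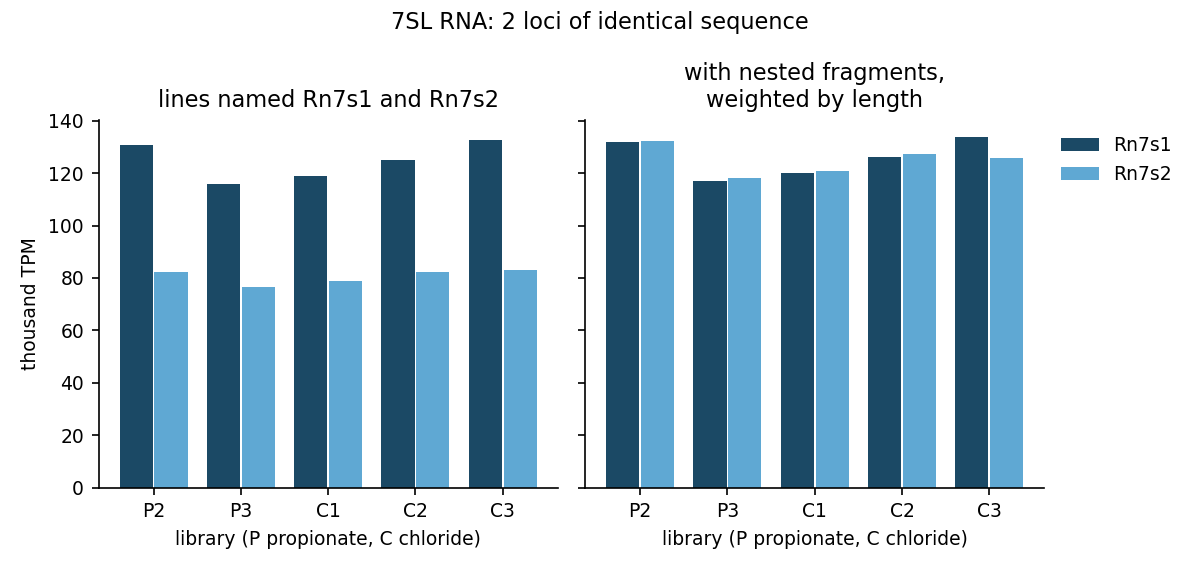
Level of Rn7s1 and Rn7s2 in TPM (axis divided by 1000) in each propionate (P) and chloride (C) library, from the named lines (left) and with nested fragments added by length (right). Rn7s1 is 1.50 to 1.59 times Rn7s2 on the left and 0.992 to 1.06 times on the right.

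Rn7sk (chr9:78175303-78175633, minus strand) stood at 62916 and 59994 TPM in the propionate libraries, against 61433, 68154 and 65453 TPM in the chloride libraries. Propionate replicate 3 was below all chloride libraries and replicate 2 was not. The difference was -0.08 ± 0.08 (SE; interval -0.26 to 0.10; adjusted p = 0.673).

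The RNase P RNA Rpph1 (chr14:50807449-50807767, minus strand) had the closest replicates of the abundant RNAs after Rn7s2, with a chloride coefficient of variation of 2.81%. It stood at 38063 and 39584 TPM in the propionate libraries, against 39817, 38210 and 40334 TPM in the chloride libraries, a difference of -0.02 ± 0.07 (SE; interval -0.19 to 0.15; adjusted p = 0.916). The related RNase MRP RNA Rmrp (chr4:43492788-43493063, minus strand) stood at 30102 and 24677 TPM in the propionate libraries, against 27520, 26308 and 28308 TPM in the chloride libraries. Its propionate libraries enclosed the chloride range, one above it and one below it, and the difference was -0.01 ± 0.10 (interval -0.23 to 0.22; adjusted p = 0.987). Within a library, the ratio of Rmrp to Rpph1 was 0.791 and 0.623 with propionate, against 0.691, 0.689 and 0.702 with chloride. No strand option was set in the StringTie step, and a Ccnb1ip1 transcript that overlaps Rpph1 on its strand was listed at 0.

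Terc, the template RNA of telomerase, averaged 12.7 ± 0.512 TPM in the propionate libraries (SD, n = 2) and 18.8 ± 2.48 TPM in the chloride libraries (SD, n = 3). The libraries stood at 13.1 and 12.4 TPM with propionate, against 20.3, 20.1 and 15.9 TPM with chloride, so the groups did not overlap. Mean coverage per base was 65.4 and 58.6 with propionate, against 99.9, 98.4 and 77.9 with chloride. The difference was -0.52 ± 0.13 (SE; interval -0.81 to -0.23) with an unadjusted p of 0.00339 and an adjusted p of 0.0905 by limma, which misses the threshold. Over 17 alternative settings, not all independent checks, the difference was -0.63 to -0.46 and the adjusted p by limma 0.0488 to 0.277. It passed in 1 of them, without chloride replicate 3.

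The Y RNAs were low and spread widely. Rny3 stood at 10.4 and 3.70 TPM in the propionate libraries, against 6.51, 5.07 and 7.39 TPM in the chloride libraries, and the propionate libraries enclosed the chloride range. Its difference was 0.01 ± 0.33 (SE; interval -0.73 to 0.76; adjusted p = 0.991). Rny1 stood at 4.68 and 0.702 TPM in the propionate libraries, against 0.518, 1.57 and 0.108 TPM in the chloride libraries. Propionate replicate 2 was the highest library for both Y RNAs. The difference of Rny1 was 0.93 ± 0.51 (SE; interval -0.24 to 2.102; adjusted p = 0.401), and its coverage was 0.527 to 23.3 per base. Leaving out propionate replicate 2 gave 0.062 and leaving out propionate replicate 3 gave 1.80, so its size rested on single libraries.

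Vaultrc5, a vault RNA gene on chromosome 18, stood at 1.41 and 0.374 TPM in the propionate libraries, against 1.55, 1.71 and 1.63 TPM in the chloride libraries. Both propionate libraries were lower, replicate 3 by most, at a coverage of 1.77 to 8.36 per base. The difference of -0.53 ± 0.25 (SE; interval -1.11 to 0.05) had an adjusted p of 0.342. Leaving out propionate replicate 3 gave -0.12, and leaving out replicate 2 gave -0.94.

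For 4 of these genes the start lies within 1000 bases of that of a gene that runs the other way. The distance between starts was 74 bases for Rpph1 and Parp2, a DNA repair enzyme, 109 bases for Rn7s1 and the ribosomal protein gene Rps29, 281 bases for Rn7sk and C920006O11Rik, and 299 bases for Rmrp and Ccdc107. None of the 4 neighbours passed, with adjusted p of 0.782 for Parp2, 0.892 for Rps29, 0.620 for C920006O11Rik and 0.249 for Ccdc107 by limma. Ccdc107 had 32.3 and 37.8 TPM in the propionate libraries, against 26.2, 31.1 and 27.7 TPM in the chloride libraries. One of its transcripts overlaps Rmrp on the opposite strand. The libraries were stranded but no strand option was set in the StringTie step, and whether reads of the overlap were told apart was not tested.

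For the 3 RNAs with the highest TPM, the tested genes whose centred log2 profile over the 5 libraries was closest were Ky, Ushbp1 and Ska1 for Rn7s1, Zfhx4, Gpatch8 and Ptcd1 for Rn7s2, and Sh3glb1, Minar2 and Cep290 for Rn7sk. The root mean square difference from Rn7s1 was 0.0230 for Ky, that from Rn7s2 was 0.00793 for Zfhx4 and that from Rn7sk was 0.0140 for Sh3glb1. The spread of the RNAs themselves about their means was 0.0751, 0.0435 and 0.0656 in that order. The median difference over the genes compared was 0.176, 0.152 and 0.154 in the same order. Zfhx4 (0.988 to 1.16 TPM) and Ushbp1 (1.10 to 1.41 TPM) lay near the minimum for testing. With 5 libraries such likeness of profile describes these libraries only.

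The protein genes that work with these RNAs were followed in 7 lists. Of 80 genes found, 78 were tested, 0 were called higher and 1 was called lower by limma, against 1.82% of all tested genes called. An unadjusted p under 0.05 was found for 9 of the 78, against 16.8% of all tested genes. Voom called 1 of the 78 higher (Ro60) and 5 lower (Dkc1, Hexim1, Polr3d, Polr3a and Gtf3c6). Over all 13875 tested genes, voom called 708 higher and 359 lower. Differences were negative for 59 and positive for 19, with a median of -0.11, beside -0.03 over all tested genes, of which 55.5% were negative. Both propionate libraries lay below all chloride libraries for 21 of the 78 and above for 4, against 19.7% and 14.8% of all tested genes.

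**Figure D5:**
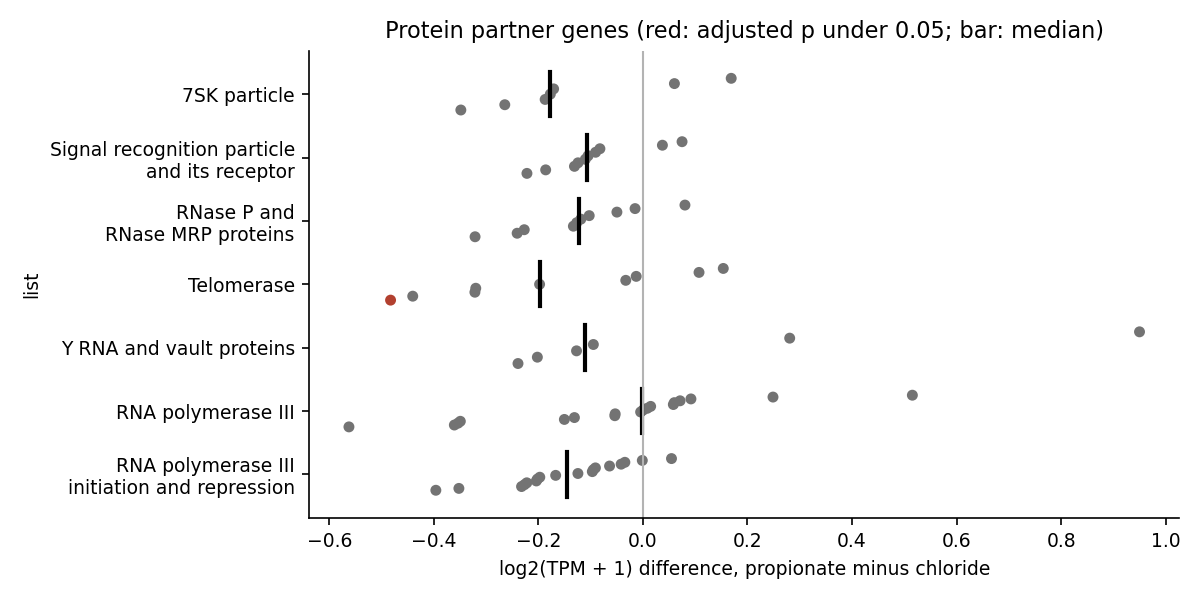
Difference in log2(TPM + 1), propionate minus chloride, for each tested protein gene of the 7 lists, with bars for list medians. Dkc1, in red, is the only point past the threshold, and the medians run from -0.20 (telomerase) to -0.00 (RNA polymerase III).

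The called gene was Dkc1, dyskerin, the pseudouridine synthase that binds telomerase RNA and other box H/ACA RNAs. It stood at 24.6 and 25.8 TPM in the propionate libraries, against 35.2, 34.3 and 37.4 TPM in the chloride libraries, and fell by 0.48 ± 0.09 on the log2 scale (SE; adjusted p = 0.0464). With any 1 library left out the difference was -0.51 to -0.45 and the adjusted p 0.117 to 0.133. With reference transcripts only it was -0.71 (adjusted p = 0.476 by limma), and with no minimum TPM the adjusted p was 0.147, so the call was lost in each of these settings while the difference stayed negative. Of the 9 tested telomerase genes, 7 had negative differences, with a median of -0.20. Both propionate libraries lay below all chloride libraries for 4 of them and above for 2 (Nop10 and Smg6, chosen for mention after their values were seen), against 19.7% and 14.8% of all tested genes.

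The 7SK list had 0 of 7 genes called and a median of -0.18. Hexim1, which inhibits P-TEFb when bound to 7SK RNA, had 23.6 and 28.7 TPM in the propionate libraries, against 34.4, 34.5 and 31.4 TPM in the chloride libraries (-0.35, adjusted p = 0.173 by limma). Mepce, which caps 7SK RNA, had a difference of -0.26 (adjusted p = 0.316). The signal recognition particle list had 0 of 10 called and a median of -0.11, with Srp68 at -0.22 (adjusted p = 0.431) and the receptor subunit Srpr at -0.19 (adjusted p = 0.548). The RNase P and MRP list had 0 of 10 called and a median of -0.12. Its protein genes Pop1 and Pop7 had differences of -0.23 (adjusted p = 0.310) and -0.32 (adjusted p = 0.385).

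Among 6 genes of Y RNA and vault proteins 0 were called and the median was -0.11. Ro60, which binds Y RNAs, had 24.8 and 26.2 TPM in the propionate libraries, against 21.8, 19.3 and 21.3 TPM in the chloride libraries. Both propionate libraries lay above, with a difference of 0.28 that did not pass (adjusted p = 0.213). Puf60, another Y RNA binding protein, had a difference of -0.20 (adjusted p = 0.355), which was 0.24 with reference transcripts only.

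RNA polymerase III itself had 0 of 18 subunit genes called, 9 differences in each direction and a median of -0.00. Polr3d stood at 8.41 and 8.28 TPM in the propionate libraries, against 11.8, 14.8 and 12.0 TPM in the chloride libraries, a difference of -0.56 ± 0.13 (SE; adjusted p = 0.0685). The catalytic subunit Polr3a had a difference of -0.35 (adjusted p = 0.145). In the list of initiation factors and the repressor Maf1, 17 of 18 differences were negative, as were 55.5% over all tested genes. None of the 18 was called, against 1.82% of all tested genes, and 7 lay below in both propionate libraries, against 19.7%. Gtf3a, the factor that starts 5S ribosomal RNA synthesis, had 30.9 and 30.8 TPM in the propionate libraries, against 37.8, 41.4 and 39.9 TPM in the chloride libraries (-0.35, adjusted p = 0.103). Gtf3c6, a subunit of the general factor TFIIIC, had a difference of -0.40 (adjusted p = 0.135), which was 0.39 with reference transcripts only.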

How the data were processed

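Per the labels' protocols, total RNA was isolated (RNeasy Mini plus, Qiagen) and made into stranded libraries (TruSeq Total RNA, Gold). The submitters' processing notes list the build mm10 and the tools StringTie, HISAT2, fastp and bcl2fastq. Per the file headers, StringTie 2.1.1 wrote each deposited file, with no strand option, so the authors' values are transcript TPM, FPKM and coverage, and no counts. Each file lists 157895 transcripts.

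TPM was summed per gene, for the 9 RNAs over transcripts of that name. For other genes, assembled transcripts (12224) were added to the gene they overlap most on the same strand. Genes with a mean of at least 1 TPM were tested on log2(TPM + 1) by a two-sided limma fit (version 3.58.1, R 4.3.3) with trended eBayes, treatment as the only term and Benjamini-Hochberg adjustment. With 2 against 3 libraries a single-gene exact permutation test cannot reach 0.05. Sequences are GENCODE M21 transcripts (GRCm38, which mm10 names), compared with blastn 2.17.0 and Biopython 1.88. The 7SL sequence is not reported here. Copies were matches of at least 85% identity over 80% of the shorter sequence and 50 bases.

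The members and lists were chosen with earlier results of these data known. Genes named from a list are those past the threshold, up to 4, or the 2 with the smallest p. Pattern likeness names the 3 nearest genes, leaving out predicted names. Alternatives changed the pseudocount, minimum, unit, scaling, summing, error model, replicate block and libraries.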

Additional observations from a re-analysis of the deposited data

How the results depend on the processing

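None of the 9 RNAs was called under 16 of the 17 alternatives. Without chloride replicate 3, 1 was called lower (Terc). Sign changes among the others were all of uncalled differences. Not all alternatives were independent checks. Counting assembled transcripts in the 9 RNAs could change nothing, as 0 were found there. Reference transcripts only left the differences of the 9 RNAs unchanged. The replicate block gave the same differences as leaving out chloride replicate 1. Rny3 came to -0.0070 with a pseudocount of 0.1 TPM and to -0.0081 with the 9 RNAs left out of the total. Rmrp came to 0.012 under median-of-ratios scaling and to 0.013 under voom. With nested fragments counted in their host, an alternative chosen after seeing the data, Rn7s2 came to 0.0039. With reference transcripts only, Puf60 came to 0.24 and Gtf3c6 to 0.39. Leaving out each library in turn gave 0.062 to 1.80 for Rny1, -0.94 to -0.12 for Vaultrc5, -0.63 to 0.65 for Rny3, -0.15 to 0.14 for Rmrp, -0.11 to 0.061 for Rn7s1, -0.086 to 0.014 for Rn7s2 and -0.051 to 0.0052 for Rpph1. With a pseudocount of 0.1 TPM, Rny1 came to 1.71 and Vaultrc5 to -1.03. A minimum mean of 5 TPM left Rny1 and Vaultrc5 untested. The difference in summed share ran from -2.18 to 0.53 points with 1 library left out. Over the whole table, genes called higher and lower numbered 182 and 70, against 2 and 1 with no minimum, 232 and 106 with FPKM, 336 and 154 with median-of-ratios scaling, 337 and 182 with TPM over protein-coding genes, 229 and 162 without the 9 RNAs in the total, 5 and 6 with reference transcripts only and 708 and 359 with voom. Higher genes were 72.2% of the calls, 58.6% without the 9 RNAs in the total and 45.5% with reference transcripts only. With 1 library left out, 8 to 126 were called higher and 7 to 46 lower, the fewest without propionate replicate 3 (8 and 7); without chloride replicates 1 and 2 and propionate replicate 2 they numbered 66 and 12, 113 and 29, and 114 and 22. No label says that numbers pair libraries. As the 2 propionate deviations are opposite, same-numbered correlations (-0.22 and -0.20, replicates 2 and 3) are not independent. The replicate block called 269 higher and 108 lower and 0 of the 9 RNAs, with Terc at -0.46 (adjusted p = 0.181 by limma) and Dkc1 at -0.49 (adjusted p = 0.128 by limma). It called 1 partner gene, Mvp, higher (1.65, adjusted p = 5.48e-05 by limma), where the fit without it gave 0.95 (adjusted p = 0.599 by limma). Mvp had 14.9 and 35.6 TPM in the propionate libraries, against 32.0, 2.56 and 15.6 TPM in the chloride libraries, so its groups overlapped. The block difference makes no use of chloride replicate 1, which has no propionate library of its number here. The cause of the other shifts between settings was not tested. The files give no read counts, so no interval for counting error can be given, and levels near 1 TPM rest on a coverage under 10 per base.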
